A study of Mus musculus with 8 samples.

Results

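Mouse cells sorted for the surface protein Sca1 were compared with the embryonic stem cells they came from. The untreated Sca1 cells were 2 libraries, and the mouse embryonic stem cells (mESC) were 2 libraries, of 8 in a series on Set7 and smooth muscle differentiation. Counts were taken from the columns of these 4 libraries, with 1 row per gene, the transcript row with the highest total over all columns. Of 23484 genes in the table, 18726 had at least 1 count in the 4 libraries and 13217 passed a filter on low counts and were tested.

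Both groups were C57BL/6 cells in 5.5 mM glucose and carried no construct. The mESC group was kept in stem cell medium with serum, serum replacement and leukaemia inhibitory factor (LIF). For the untreated Sca1 group, the protocol took LIF away for 4 days on gelatin, sorted Sca1-positive cells on magnetic beads and grew them on without LIF for 2 to 8 population doublings. Purity after the sort was above 80% by flow cytometry, so the group can hold other cells. All cells came from 1 gifted stem cell stock. The labels do not say that replicates were separate cultures, and p-values therefore cover the spread of these libraries only, which may be technical.

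LIF binds a receptor of Lifr and Il6st chains and works through the kinase Jak1 and the factor Stat3, a pathway that keeps mouse stem cells undifferentiated in culture. When it is taken away, stem cells leave that state and form cells of all germ layers. Sca1-positive cells from such cultures are used as progenitors of smooth muscle, the contractile cells of vessel walls. The comparison addresses what the cells had gained and lost by the time they were sorted and grown, before any smooth muscle medium or construct.

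Gene counts added up to 3097483 and 2507995 in the untreated Sca1 libraries and 4288602 and 5080326 in the mESC libraries. Levels are counts-per-million (CPM) values with library sizes scaled by edgeR's TMM method, given for replicate 1 and then replicate 2 of each group. A CPM value is not scaled by transcript length, so levels are compared within a gene. Differences are log2 fold changes, untreated Sca1 over mESC, with their standard error (SE) and n = 2 libraries per group. A gene was called at an adjusted p of 0.05 by edgeR's quasi-likelihood test with Benjamini-Hochberg adjustment, and "rose" and "fell" are used of called genes. Where a group had no count, the fold is a lower bound with 3 counts put there over the group. Where a group had 1 to 3 counts, the ratio of scaled counts is given with its exact 95% counting interval. Both cover counting error only.

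Libraries differed by replicate as well as by group. Both replicate 2 libraries share the code 56 in their labels and both replicate 1 libraries the code 34, and the labels do not say what the code is. The non-coding row NR_046233, which no annotation used here names, took 12.0% of counts in untreated Sca1 replicate 2 and 11.5% in mESC replicate 2. It took 0.462% in untreated Sca1 replicate 1 and 0.726% in mESC replicate 1. Log-CPM values correlated at 0.966 between the untreated Sca1 replicates and 0.968 between the mESC replicates (Pearson's r across genes, which are not independent), and between groups at 0.847 to 0.893.

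Of 13217 genes tested, 3491 (26.4%) were called. Untreated Sca1 cells were higher for 1903 genes (14.4%) and lower for 1588 (12.0%), and 1306 and 825 of these differed by more than 2-fold. The median log2 fold change of all genes tested was -0.01. In every called gene both untreated Sca1 libraries lay on the same side of both mESC libraries, and the sign was the same within code 34 and within code 56. Over all genes tested, both untreated Sca1 libraries lay above both mESC libraries in 4099 (31.0%) and below both in 4206 (31.8%), so separation of the 4 libraries alone is common. A gene was tested only if at least 2 libraries reached 2.71 CPM by column totals, so a gene below that level in 1 group was tested only if it was higher in the other. Of all genes tested, 597 (4.52%) passed through the untreated Sca1 libraries alone, with neither mESC library at that level, and 239 (1.81%) through the mESC libraries alone. Shares and medians of the gene groups below are to be read against these values.

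**Figure D1:**
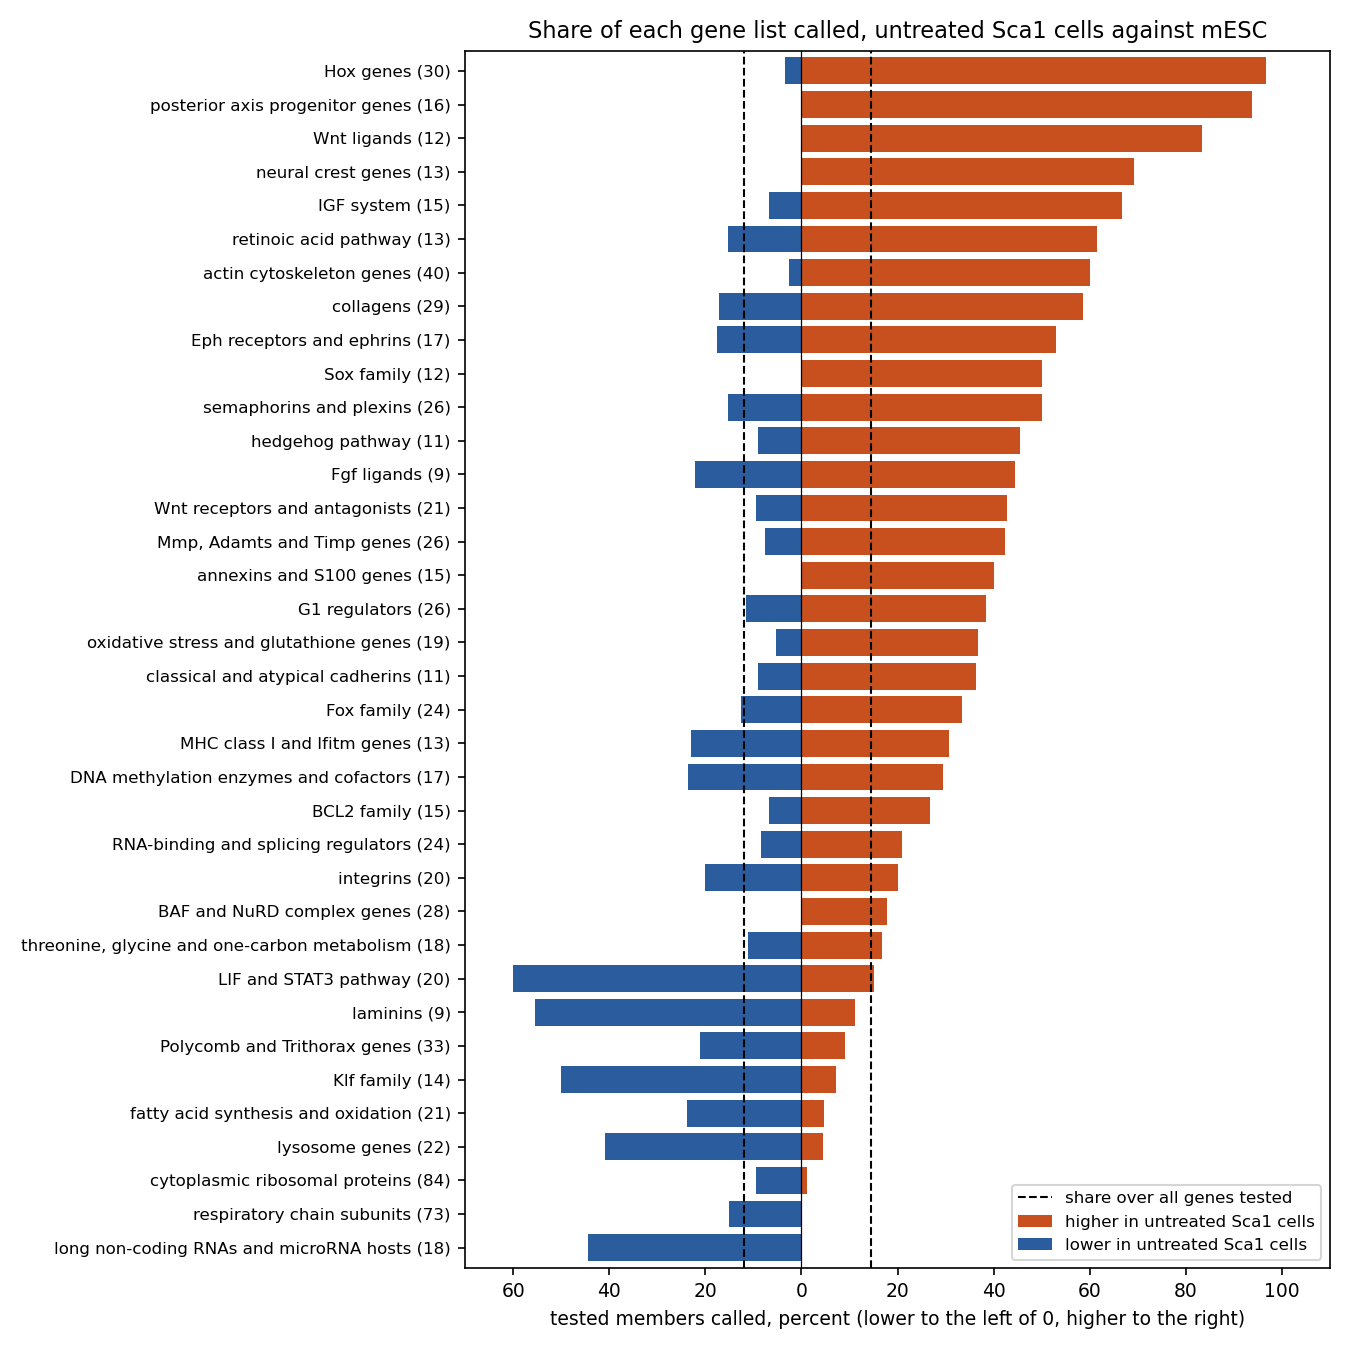
Bars give the percent of tested members of each gene list called higher in untreated Sca1 cells (to the right) or lower (to the left) than in mESC, with the number tested in brackets, for lists with at least 9 tested members. Dashed lines mark the shares over all genes tested, 14.4% higher and 12.0% lower. Hox genes, posterior axis genes and Wnt ligands stand at the top, and long non-coding RNAs, with 8 of 18 lower, at the bottom.

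Setd7 (NM_080793, chromosome 3), which encodes Set7, a lysine methyltransferase of histone H3 and other proteins, was the gene of the series' title. It had 73.6 and 64.6 CPM in untreated Sca1 cells, against 10.8 and 15.9 CPM in mESC. The fold change was 2.37 ± 0.24 on the log2 scale (edgeR adjusted p = 3.66e-07), and both untreated Sca1 libraries lay far above both mESC libraries. Between libraries of 1 code (log2 CPM with a prior count of 2) the difference was 2.71 within code 34 and 1.98 within code 56, where the code is the one in the labels. Ly6a, the gene of the sorted antigen Sca1, had 12.5 and 4.30 CPM in untreated Sca1 cells, against 9.47 and 5.52 CPM in mESC. One untreated Sca1 library lay above and one below both mESC libraries, and the difference was not called (edgeR adjusted p = 0.762).

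Markers of embryonic stem cells stayed abundant in the untreated Sca1 cells. Summed over 10 markers, levels were 2576 and 2282 CPM in untreated Sca1 cells, against 3948 and 3591 CPM in mESC. Of these 10 markers, 5 fell and 0 rose, a share of members to be set against 12.0% of all genes. Tdgf1, the Nodal co-receptor, had 161 and 126 CPM in untreated Sca1 cells, against 444 and 598 CPM in mESC (log2 fold change -1.86 ± 0.19, edgeR adjusted p = 4.98e-07). Both untreated Sca1 libraries lay well under both mESC libraries. Klf4 (-1.50 ± 0.22), the orphan receptor gene Esrrb (-1.11 ± 0.20), Zfp42 (-0.88 ± 0.17), known as Rex1, and the growth factor gene Fgf4 (-0.72 ± 0.19) were the other falls. Pou5f1, which encodes Oct4, had 602 and 656 CPM in untreated Sca1 cells, against 812 and 555 CPM in mESC, and the groups overlapped. Nanog stood at 199.6 and 162 CPM in untreated Sca1 cells, against 186 and 189 CPM in mESC, also overlapping. Sox2, Dppa5a and Utf1 were not called either, at log2 fold changes of -0.38, -0.40 and -0.22. In bulk RNA, fewer cells of a type and less RNA per cell cannot be told apart. Calls lost with 1 library left out were those of Fgf4 without untreated Sca1 replicate 2 (edgeR adjusted p = 0.139).

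Smooth muscle markers rose for 8 of 9 tested of 10, with 0 falls, and 4 of the 9 passed the low-count filter through the untreated Sca1 libraries alone. DESeq2 called 5 of them higher. Their sum was 918 and 580 CPM in untreated Sca1 cells, against 49.1 and 44.2 CPM in mESC. Acta2, smooth muscle alpha-actin, had 411 and 238 CPM in untreated Sca1 cells, against 3.30 and 1.49 CPM in mESC (log2 fold change 7.08 ± 0.37, edgeR adjusted p = 9.21e-08). Tagln, an actin-binding protein also called SM22, had 359.8 and 222 CPM in untreated Sca1 cells, against 4.63 and 4.25 CPM in mESC (log2 fold change 6.03 ± 0.27). For both genes replicate 1 was the higher untreated Sca1 library, and both libraries were far above mESC. Cnn1, calponin 1, rose by 5.40 ± 0.52, the intermediate filament gene Des by 2.40 ± 0.26, Lmod1 by 2.79 ± 0.58, Synpo2 by 2.15 ± 0.56, Myh11, smooth muscle myosin heavy chain, by 1.89 ± 0.58 and Smtn by 0.81 ± 0.23. Myh11 stood at only 5.36 and 3.44 CPM in untreated Sca1 cells, against 1.54 and 0.849 CPM in mESC. Mylk was not called, and Myocd, the cofactor that drives the contractile programme, had 0 and 2 counts in untreated Sca1 cells, against 0 and 2 counts in mESC and was not tested. One left-out library was enough to end the calls of Synpo2 without untreated Sca1 replicate 2 or mESC replicate 1 (edgeR adjusted p up to 0.123), Myh11 and Smtn without untreated Sca1 replicate 1 or mESC replicate 2 (edgeR adjusted p up to 0.274).

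**Figure D2:**
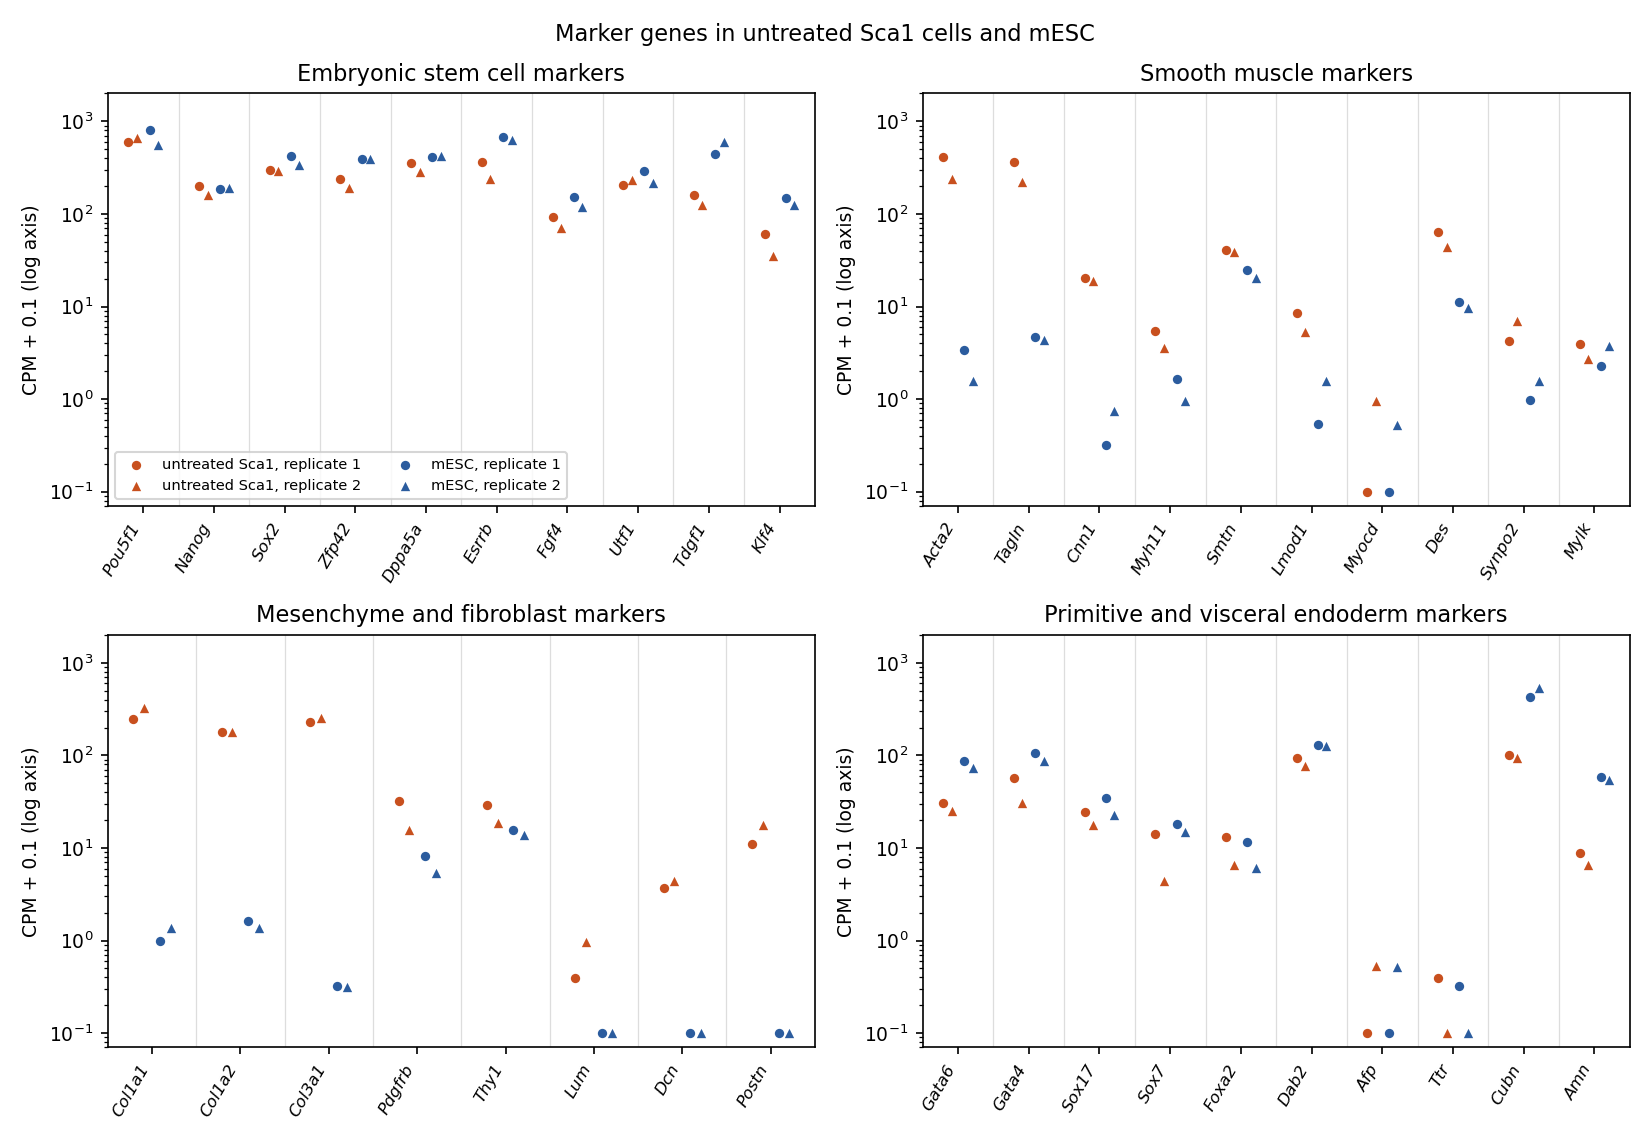
Points are the CPM of each library plus 0.1 on a log axis, untreated Sca1 cells in orange left of mESC in blue, circles for replicate 1 and triangles for replicate 2. Stem cell markers differ by small steps, from 161 and 126 CPM in untreated Sca1 cells against 444 and 598 CPM in mESC for Tdgf1 to overlapping levels for Pou5f1 and Nanog, while Acta2, Tagln, Col1a1, Col1a2 and Col3a1 stand far above mESC.

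Other cell types were represented unevenly. Of 8 markers of mesenchyme and fibroblasts, 7 were tested and 6 rose, and 5 of the 7 passed the low-count filter through the untreated Sca1 libraries alone. Besides the fibrillar collagens described below, Postn, a matrix protein of fibroblasts, had 37 and 41 counts in untreated Sca1 cells, against 0 and 0 counts in mESC (at least 42.3-fold higher), Dcn, a small proteoglycan, had 12 and 10 counts in untreated Sca1 cells, against 0 and 0 counts in mESC (at least 11.9-fold higher), and Pdgfrb, the PDGF receptor of mural cells, rose by 1.84 ± 0.36. Thy1 was not called and Lum was too low to test. The sum over the 8 markers was 731 and 816 CPM in untreated Sca1 cells, against 26.4 and 21.7 CPM in mESC. Markers of primitive, visceral and parietal endoderm fell for 5 of 8 tested, summing to 340.1 and 261 CPM in untreated Sca1 cells, against 866 and 921 CPM in mESC. Cubn, an endocytic receptor, had 101 and 94.3 CPM in untreated Sca1 cells, against 422 and 538 CPM in mESC (log2 fold change -2.30 ± 0.18, edgeR adjusted p = 1.83e-08). Its partner Amn fell by 2.86 ± 0.26 on the log2 scale, and Gata6, Gata4 and Dab2 fell by 1.52 ± 0.21, 1.12 ± 0.24 and 0.59 ± 0.17. The mESC libraries were thus the ones with more endoderm marker RNA, and the part of such cells in other differences was not tested. The call of Dab2 was lost without untreated Sca1 replicate 2 (log2 fold change -0.439). Dcn was too low to test with either untreated Sca1 library left out, so its call was not kept there.

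Of 5 endothelial markers tested, 3 fell, namely Pecam1, with 43.8 and 42.2 CPM in untreated Sca1 cells, against 151 and 163 CPM in mESC (log2 fold change -1.87 ± 0.18), Esam (-3.12 ± 0.45) and Tek (-1.56 ± 0.51). The summed endothelial level was 54.5 and 51.7 CPM in untreated Sca1 cells, against 180.2 and 196 CPM in mESC, most of it Pecam1, which stem cells also express. Blood markers were near absence in both groups, at 4.47 and 4.73 CPM in untreated Sca1 cells, against 7.05 and 5.73 CPM in mESC for 8 genes together, and Ptprc, Hba-x and Hbb-bh1 had no count in either group. Of trophoblast markers, 4 of 5 tested rose, namely Cdx2 (3.48 ± 0.25), Krt7 (count ratio 171, interval 30.02 to 6816), Gata3 (2.92 ± 0.60) and Tfap2c (0.60 ± 0.20), while Tpbpa had no count in either group and Elf5 had 2 and 3 counts in untreated Sca1 cells, against 0 and 1 counts in mESC. Of the 5 tested, 2 passed the low-count filter through the untreated Sca1 libraries alone. Of neural markers, only Nes, an intermediate filament gene also used by mesenchymal and muscle progenitors, was called among 3 tested, with 170.4 and 155 CPM in untreated Sca1 cells, against 10.1 and 7.64 CPM in mESC (log2 fold change 4.19 ± 0.22). Olig2 had no count in either group. Of 8 cardiac markers 1 was tested and 0 were called. Their sum was 15.5 and 18.1 CPM in untreated Sca1 cells, against 5.07 and 4.46 CPM in mESC. Dependent on 1 library were the calls of Tek without untreated Sca1 replicate 2 or mESC replicate 2 (edgeR adjusted p up to 0.222), Tfap2c without untreated Sca1 replicate 1, untreated Sca1 replicate 2 or mESC replicate 2 (edgeR adjusted p up to 0.224).

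Of 40 genes of the actin cytoskeleton, all tested, 24 rose and 1 fell, against 14.4% and 12.0% of all genes, with a median log2 fold change of 0.83. Of the 40, 5 passed the low-count filter through the untreated Sca1 libraries alone. Actc1, cardiac alpha-actin, had 287 and 90 counts in untreated Sca1 cells, against 0 and 0 counts in mESC and was at least 205-fold higher. Acta1, skeletal alpha-actin, had 133 and 72 counts in untreated Sca1 cells, against 2 and 0 counts in mESC, a count ratio of 167, 95% counting interval 45.6 to 1387. Actg2, the other smooth muscle actin, had 67 and 9 counts in untreated Sca1 cells, against 2 and 1 counts in mESC (a count ratio of 41.2, 95% counting interval 13.6 to 204), with most of its counts in untreated Sca1 replicate 1. Without that library Actg2 was too low to test. The cytoplasmic isoform Actb was at 1869.8 and 2164 CPM in untreated Sca1 cells, against 1755 and 1739 CPM in mESC, and was not called. Actin genes are near-identical in their coding parts, and how shared reads were counted is not given in the sources used here, so single isoforms are uncertain.

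Proteins that bind actin filaments were among the rises. Tropomyosin Tpm1 had 872 and 785 CPM in untreated Sca1 cells, against 98.04 and 85.98 CPM in mESC (log2 fold change 3.17 ± 0.18, edgeR adjusted p = 2.79e-10). Caldesmon Cald1 had 272 and 234 CPM in untreated Sca1 cells, against 25.1 and 29.5 CPM in mESC (log2 fold change 3.21 ± 0.18), and calponin 2, Cnn2, 262 and 250.1 CPM in untreated Sca1 cells, against 32.4 and 29.3 CPM in mESC (log2 fold change 3.05 ± 0.18). In all 3 genes the replicates lay close together and both groups were far apart. The filamin Flnc, a crosslinker of striated muscle, rose by 3.27 ± 0.21 and the filamin Flna by 0.56 ± 0.18. The myosin light chain Myl9 rose by 5.05 ± 0.33 and the non-muscle heavy chain Myh10 by 2.09 ± 0.17, against 0.52 ± 0.17 for Myh9. Nucleators and turnover proteins such as Diaph1, Arpc2, Cfl1 and Pfn1 were not called. Not kept in every leave-out were the calls of Flna without untreated Sca1 replicate 1, untreated Sca1 replicate 2 or mESC replicate 1 (edgeR adjusted p up to 0.17), Myh9 without untreated Sca1 replicate 1, untreated Sca1 replicate 2 or mESC replicate 2 (edgeR adjusted p up to 0.278). Of the actin cytoskeleton genes, 0 were called lower without untreated Sca1 replicate 1, untreated Sca1 replicate 2 or mESC replicate 2, and 2 without mESC replicate 1. Of the actin cytoskeleton genes, 0 were called lower with library totals as the only scaling.

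Many actin genes are known targets of the serum response factor, which binds a DNA element called the CArG box. Promoters are shown here because these genes moved together. In the 250 bases before the start, taken from RefSeq promoter windows on GRCm38.p6, a strict CArG box (a pair of C, A or T at the letters between them, a pair of G, which reads alike on both strands) was found in 5 of 22 called-higher members with a window. The share was 22.7%, against 2.40% of all called-higher genes with a window (34 of 1416), 1.06% of called-lower genes (13 of 1224) and 1.62% of all genes with a window (439 of 27025). The 5 genes were Actc1, Acta1, Actg1, Cnn2 and Myl9. Acta2 had a window without a strict box, and Tagln, Actg2 and Myh11 had no window. The share among actin genes that were not called was not taken, and whether the box goes with the rise was not tested. The windows of 3 of them follow, with the box in capitals. They lie at chr2:114052876-114053125, minus strand, at chr10:79988350-79988599, plus strand, and at chr2:156775214-156775463, plus strand. The box begins 47 bases before the start in Actc1, 56 in Cnn2 and 161 in Myl9. A match describes these letters only. Calls lost with 1 library left out were those of Actg1 without untreated Sca1 replicate 1 or mESC replicate 2 (edgeR adjusted p up to 0.284).
Actc1 (upstream window): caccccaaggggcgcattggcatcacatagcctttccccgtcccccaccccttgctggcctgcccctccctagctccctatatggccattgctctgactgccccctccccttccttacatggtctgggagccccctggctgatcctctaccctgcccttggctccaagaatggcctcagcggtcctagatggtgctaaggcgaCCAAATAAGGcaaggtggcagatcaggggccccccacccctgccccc
Cnn2 (upstream window): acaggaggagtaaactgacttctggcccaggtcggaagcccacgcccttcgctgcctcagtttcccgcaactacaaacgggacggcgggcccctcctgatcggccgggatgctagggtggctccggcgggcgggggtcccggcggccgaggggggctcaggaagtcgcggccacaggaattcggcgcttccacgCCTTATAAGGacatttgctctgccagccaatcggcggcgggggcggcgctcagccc
Myl9 (upstream window): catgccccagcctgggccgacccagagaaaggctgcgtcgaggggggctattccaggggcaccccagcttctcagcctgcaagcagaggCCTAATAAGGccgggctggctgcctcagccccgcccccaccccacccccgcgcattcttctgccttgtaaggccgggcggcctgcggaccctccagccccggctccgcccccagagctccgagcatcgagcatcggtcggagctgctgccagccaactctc

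Collagens went both ways. Of 29 tested of 43 collagen genes, 17 rose and 5 fell, with a median log2 fold change of 1.85, and 12 of the 29 passed the low-count filter through the untreated Sca1 libraries alone. Chains of fibrillar collagens I and III rose. Col1a1 had 247 and 323 CPM in untreated Sca1 cells, against 0.881 and 1.27 CPM in mESC (log2 fold change 7.99 ± 0.29, edgeR adjusted p = 3.36e-13), Col1a2 had 178 and 180.4 CPM in untreated Sca1 cells, against 1.54 and 1.27 CPM in mESC (log2 fold change 6.96 ± 0.27), and Col3a1 had 774 and 595 counts in untreated Sca1 cells, against 1 and 1 counts in mESC (a count ratio of 1114, 95% counting interval 308 to 9212). Replicates of each gene lay close together and mESC levels were at the limit of detection. Col5a2 rose by 4.01 ± 0.36, and the network-forming Col8a1, with no count in mESC, was at least 79.2-fold higher. The basement membrane chains Col4a1 and Col4a2 fell, Col4a1 with 727 and 954 CPM in untreated Sca1 cells, against 1489 and 1358 CPM in mESC (log2 fold change -0.76 ± 0.20) and Col4a2 with a log2 fold change of -0.67 ± 0.19. Col13a1 (-1.14 ± 0.26), Col27a1 (-0.80 ± 0.25) and Col5a3 (-1.23 ± 0.44) were the other falls. One left-out library was enough to end the calls of Col4a1 and Col4a2 without untreated Sca1 replicate 1 (edgeR adjusted p up to 0.376), Col27a1 without untreated Sca1 replicate 2 or mESC replicate 2 (edgeR adjusted p up to 0.217), Col5a3 without untreated Sca1 replicate 1, untreated Sca1 replicate 2, mESC replicate 1 or mESC replicate 2 (edgeR adjusted p up to 0.258). Of the collagens, 2 were called lower without untreated Sca1 replicate 1, and 3 without untreated Sca1 replicate 2 or mESC replicate 2. Of the collagens, 2 were called lower with library totals as the only scaling and 3 with DESeq2.

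Laminins, the main glycoproteins of the basement membrane, fell for 5 of 9 tested genes. Lama1, the alpha chain of the first embryonic laminin, had 571 and 668 CPM in untreated Sca1 cells, against 1649.5 and 1674 CPM in mESC (log2 fold change -1.42 ± 0.20, edgeR adjusted p = 1.78e-05). Lamc1, the common gamma chain, had 757 and 866 CPM in untreated Sca1 cells, against 1868 and 2015 CPM in mESC (log2 fold change -1.26 ± 0.20). Neither gene's libraries overlapped between the groups. Lama3 (-1.63 ± 0.30), Lamb2 (-0.76 ± 0.20) and Lamb1 (-0.71 ± 0.19) were the other falls. Lama4, the alpha chain of vessel and muscle basement membranes, was the single rise, with 6.85 and 7.32 CPM in untreated Sca1 cells, against 1.10 and 2.34 CPM in mESC (log2 fold change 2.01 ± 0.50). Primitive and parietal endoderm, whose markers were higher in mESC, is known for making much laminin and type IV collagen. Its part in these differences was not tested. Among these calls, 1 left-out library ended those of Lamb2 and Lamb1 without untreated Sca1 replicate 1 (edgeR adjusted p up to 0.244), Lama4 without mESC replicate 1 (edgeR adjusted p = 0.0589). Of the laminins, 0 were called higher without mESC replicate 1. Of the laminins, 3 were called lower without untreated Sca1 replicate 1. Of the laminins, 0 were called higher with DESeq2.

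**Figure D3:**
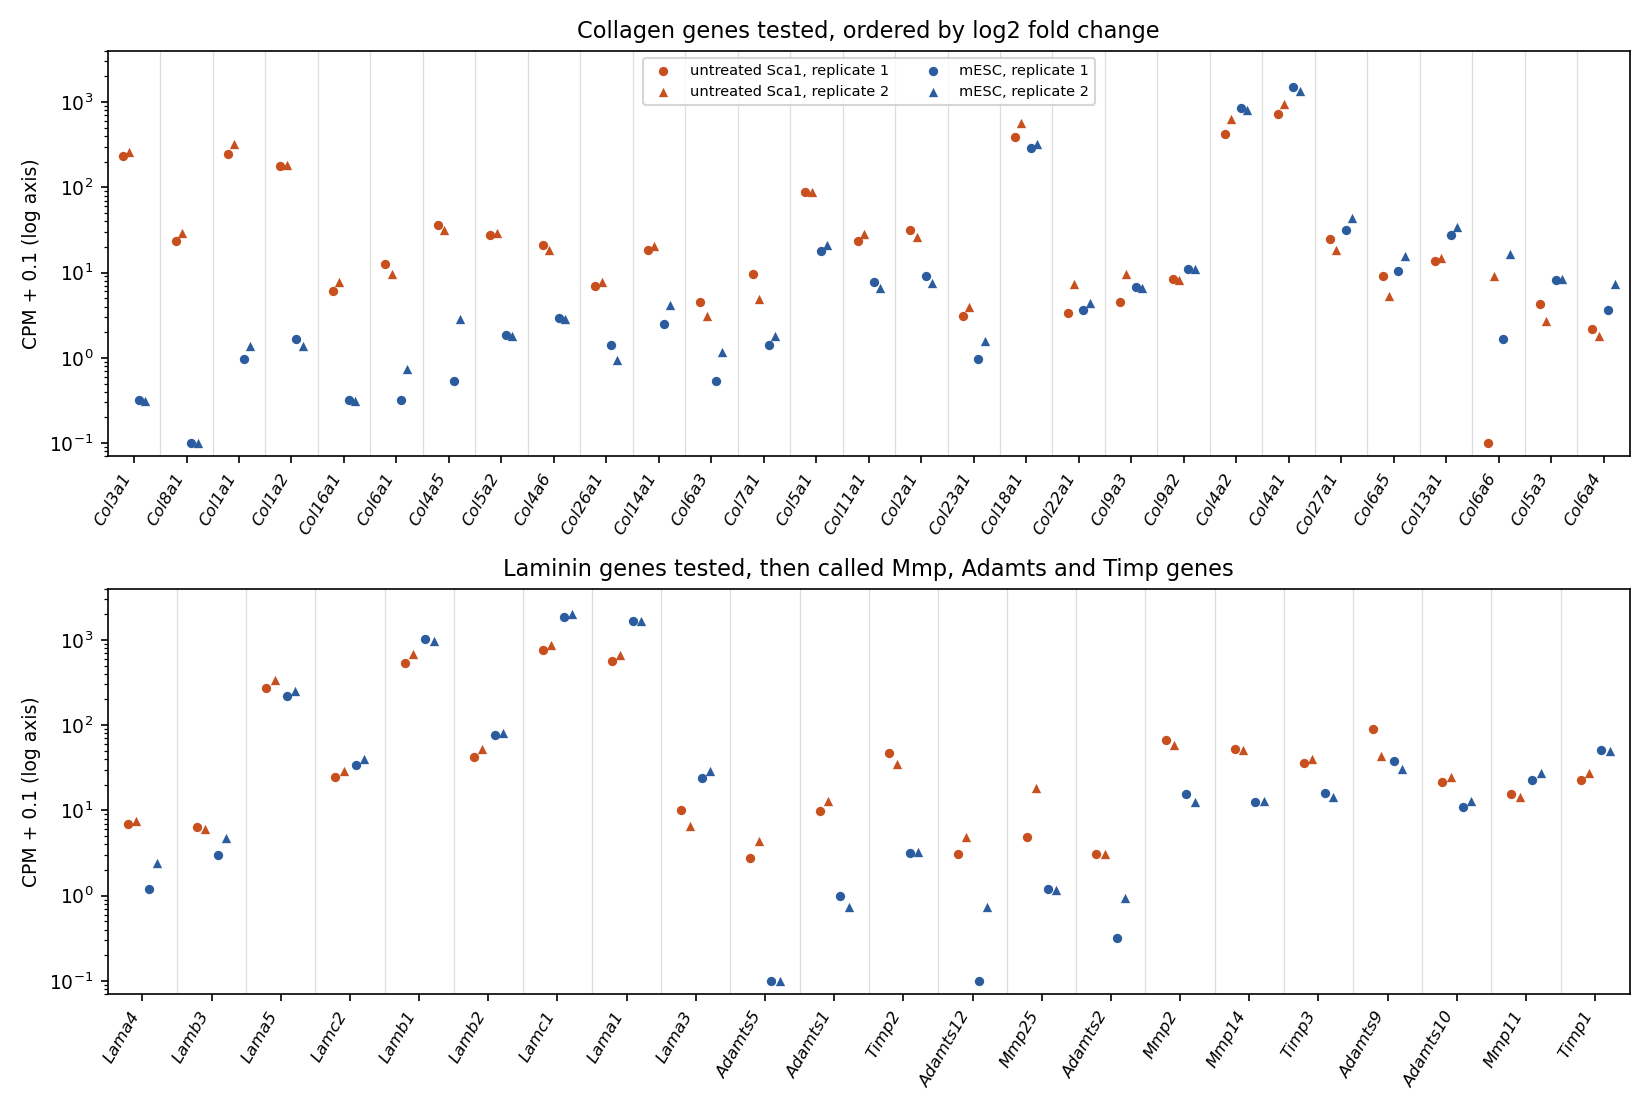
Points are the CPM of each library plus 0.1 on a log axis, untreated Sca1 cells in orange left of mESC in blue, for tested collagen genes (top), tested laminin genes and called genes of matrix proteases and their inhibitors (bottom). Fibrillar collagens at the left stand at 178 to 323 CPM in untreated Sca1 cells, against 0.212 to 1.54 CPM in mESC (Col3a1, Col1a1, Col1a2), while Col4a1, Lama1 and Lamc1 are lower than in mESC.

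Genes that remodel matrix rose for 11 of 26 tested members of the Mmp, Adamts and Timp families and fell for 2, and 7 of the 26 passed the low-count filter through the untreated Sca1 libraries alone. The gelatinase Mmp2 had 66.4 and 58.97 CPM in untreated Sca1 cells, against 15.6 and 12.5 CPM in mESC (log2 fold change 2.16 ± 0.23), and Mmp14, the membrane protease that activates it, had 53.02 and 51.2 CPM in untreated Sca1 cells, against 12.3 and 12.9 CPM in mESC (log2 fold change 2.04 ± 0.23). Their inhibitor Timp2 had 47.1 and 35.3 CPM in untreated Sca1 cells, against 3.08 and 3.18 CPM in mESC (log2 fold change 3.71 ± 0.31, edgeR adjusted p = 3.94e-08). Timp1, another inhibitor, fell by 1.03 ± 0.22, and Mmp11 fell by 0.75 ± 0.26. Adamts1 rose by 3.84 ± 0.52, and Adamts5, with no count in mESC, was at least 10.3-fold higher. With either untreated Sca1 library left out, Adamts5 was too low to test. Integrins, the receptors of matrix, had 4 of 20 tested members higher and 4 lower, against 14.4% and 12.0% of all genes. The rises were Itga8 (3.08 ± 0.64), Itga3 (1.04 ± 0.17), Itga1 (0.85 ± 0.20) and Itgb5 (0.56 ± 0.19), and the falls Itgb7 (-1.92 ± 0.30), Itga9 (-1.01 ± 0.28), Itga5 (-0.63 ± 0.17) and Itga6 (-0.62 ± 0.17). Dependent on 1 library were the calls of Mmp11, Itgb5 and Itga6 without untreated Sca1 replicate 1, untreated Sca1 replicate 2 or mESC replicate 2 (edgeR adjusted p up to 0.215), Itga9 without mESC replicate 2 (edgeR adjusted p = 0.283), Itga5 without untreated Sca1 replicate 2 or mESC replicate 2 (edgeR adjusted p up to 0.171). Of the Mmp, Adamts and Timp genes, 7 were called higher without untreated Sca1 replicate 1 or untreated Sca1 replicate 2. Of the Mmp, Adamts and Timp genes, 1 was called lower without untreated Sca1 replicate 1, untreated Sca1 replicate 2 or mESC replicate 2. Of the integrins, 2 were called lower without untreated Sca1 replicate 2, and 1 without mESC replicate 2. Of the Mmp, Adamts and Timp genes, 1 was called lower with library totals as the only scaling or with DESeq2. Of the integrins, 2 were called lower with library totals as the only scaling.

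Adhesion genes of both mesenchymal and epithelial kinds rose. Among cadherins, 4 of 11 tested rose and 1 fell, against 14.4% and 12.0% of all genes. Of the 11, 2 passed the low-count filter through the untreated Sca1 libraries alone and 1 through the mESC libraries alone. Cdh11, a mesenchymal cadherin, had 37.2 and 37.4 CPM in untreated Sca1 cells, against 1.98 and 0.212 CPM in mESC (log2 fold change 5.06 ± 0.44). Cdh2, N-cadherin, had 53.9 and 49.9 CPM in untreated Sca1 cells, against 4.63 and 9.13 CPM in mESC (log2 fold change 2.91 ± 0.29, edgeR adjusted p = 3.11e-07), Cdh6 rose by 1.80 ± 0.38 and Cdh3, P-cadherin, by 0.70 ± 0.21, and Cdh4 fell by 2.73 ± 0.29. Claudins, which seal epithelial tight junctions, rose for all 5 that passed the filter of 23. Those were Cldn6, with 95.3 and 126 CPM in untreated Sca1 cells, against 13.4 and 13.2 CPM in mESC (log2 fold change 3.05 ± 0.22), Cldn4 (2.45 ± 0.21), Cldn7 (2.70 ± 0.41), Cldn3 (3.08 ± 0.49) and Cldn12 (0.71 ± 0.21). Of these 5 claudins, 1 passed the filter through the untreated Sca1 libraries alone, so for it only a higher level there could be tested. The other 18 were too low to test. Both mesenchymal and epithelial genes were thus higher in the same libraries, and bulk RNA cannot place them in the same or in separate cells. Not kept in every leave-out were the calls of Cdh3 without untreated Sca1 replicate 2 or mESC replicate 1 (edgeR adjusted p up to 0.198), Cldn12 without untreated Sca1 replicate 1 (edgeR adjusted p = 0.246). Of the classical and atypical cadherins, 2 were called lower without untreated Sca1 replicate 2 or mESC replicate 1. Of the claudins, 1 was called lower without untreated Sca1 replicate 1.

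Caveolae are pits of the membrane that are abundant in smooth muscle, and 4 of 6 tested of their genes rose. Of the 6, 2 passed the low-count filter through the untreated Sca1 libraries alone, so for them only a higher level there could be tested. Cav1 had 19 and 9 counts in untreated Sca1 cells, against 0 and 0 counts in mESC and was at least 15.2-fold higher. Ehd2 rose by 3.09 ± 0.43 and Pacsin3 by 1.08 ± 0.32, and Cavin3 had a count ratio of 29.3, 95% counting interval 4.63 to 1221. Among annexins and S100 proteins, which bind calcium and membranes, 6 of 15 tested rose and 0 fell. Anxa1 had 53.6 and 53.4 CPM in untreated Sca1 cells, against 5.29 and 4.88 CPM in mESC (log2 fold change 3.39 ± 0.27, edgeR adjusted p = 1.76e-08), and Anxa3 (3.09 ± 0.30), Anxa5 (2.18 ± 0.22), S100a6 (1.71 ± 0.22) and Anxa2 (1.93 ± 0.26) also rose. The call of Pacsin3 was lost without untreated Sca1 replicate 1, untreated Sca1 replicate 2 or mESC replicate 2 (log2 fold change 0.890 to 1.13). Cav1 was too low to test without untreated Sca1 replicate 1, and Cavin3 with either untreated Sca1 library left out. Their calls were thus not kept there either. Of the caveolae genes, 1 was called higher without untreated Sca1 replicate 1, and 2 without untreated Sca1 replicate 2.

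Hox genes, the homeodomain factors that encode position along the body axis, rose almost throughout. Of 39 genes in the 4 clusters, 30 passed the filter, 29 rose and 1, Hoxc13, fell. The median log2 fold change of those tested was 4.98, and 4.81 with the 5 genes that had no count in mESC set at their lower bounds. Of the 30, 27 passed the filter through the untreated Sca1 libraries alone, so members that did not rise could rarely be tested, and the other 9 had at most 12 counts in any library. Hoxb1, at the start of its cluster, had 28.3 and 58.1 CPM in untreated Sca1 cells, against 0.441 and 0.212 CPM in mESC. Replicate 2 was the higher untreated Sca1 library. Hoxd3 had 41.99 and 36.6 CPM in untreated Sca1 cells, against 0.22 and 0.637 CPM in mESC (log2 fold change 6.40 ± 0.43, edgeR adjusted p = 2.47e-09), and Hoxa3 31.9 and 24.1 CPM in untreated Sca1 cells, against 0.661 and 1.27 CPM in mESC (log2 fold change 4.81 ± 0.42), with replicates close together. The call of Hoxc13 was lost without untreated Sca1 replicate 2 (log2 fold change -1.31). Some of the 29 rises were not kept in every leave-out either.

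Other Hox genes had few counts or none in mESC. Hoxb3 had 58 and 42 counts in untreated Sca1 cells, against 0 and 0 counts in mESC and was at least 54.3-fold higher, Hoxb2 was at least 55.9-fold higher, and Hoxc6 was at least 36.4-fold higher. Hoxc10 had 104 and 51 counts in untreated Sca1 cells, against 2 and 1 counts in mESC (a count ratio of 84.1, 95% counting interval 28.3 to 412), and Hoxd10 had 46 and 22 counts in untreated Sca1 cells, against 0 and 0 counts in mESC (at least 36.9-fold higher). Beyond group 10 levels were low. Hoxd11 had 11 and 9 counts in untreated Sca1 cells, against 0 and 1 counts in mESC, and Hoxa11, Hoxc11, Hoxd12 and Hoxa13 were too low to test. At the far end Hoxc13 had 2.98 and 0.43 CPM in untreated Sca1 cells, against 7.05 and 8.07 CPM in mESC (log2 fold change -1.98 ± 0.55, edgeR adjusted p = 0.0117), and the groups did not overlap. Hoxc12 had 2 and 1 counts in untreated Sca1 cells, against 7 and 12 counts in mESC, and Hoxd13 had 2 and 2 counts in untreated Sca1 cells, against 9 and 7 counts in mESC. Both were too low to test, with more counts in each mESC library than in either untreated Sca1 library. Without untreated Sca1 replicate 2 the call of Hoxc13 was lost (log2 fold change -1.31). Hoxd11 was too low to test with either untreated Sca1 library left out, and further rises were not kept in every leave-out. Of the Hox genes, 0 were called lower without untreated Sca1 replicate 2. Of the Hox genes, 0 were called lower with DESeq2.

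**Figure D4:**
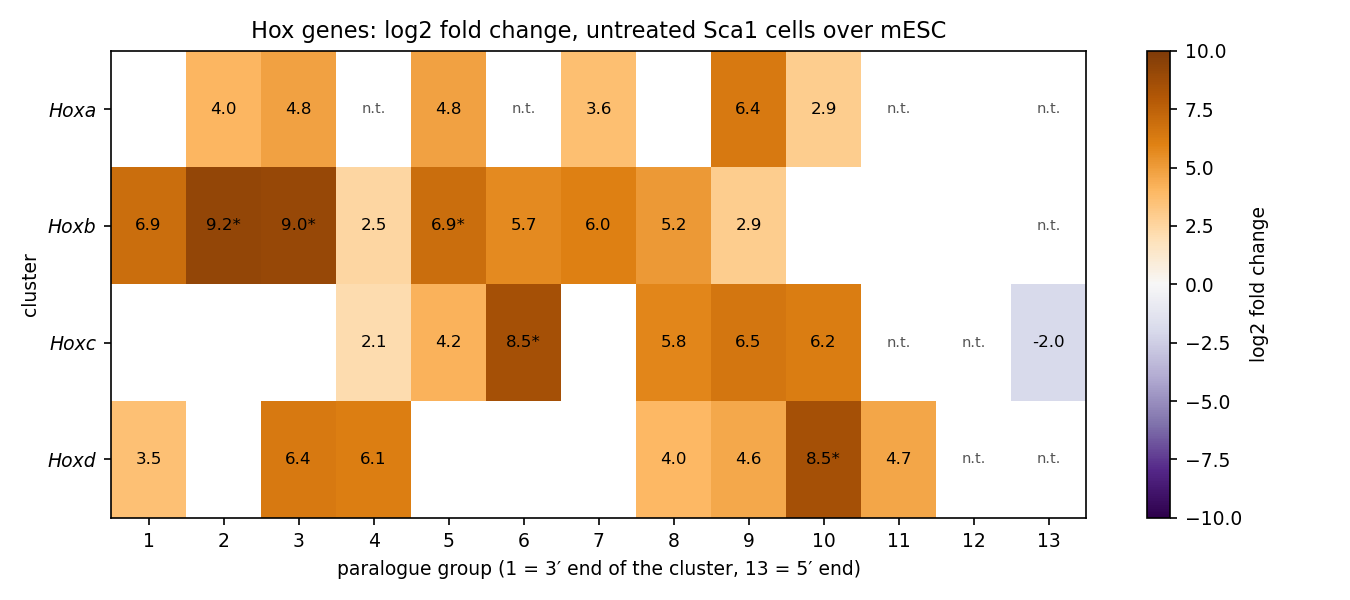
Cells give the log2 fold change of each Hox gene, untreated Sca1 cells over mESC, by cluster (rows) and paralogue group (columns), n.t. marks a gene too low to test, and empty cells have no gene or are not reported here. An asterisk marks a gene with no count in mESC, whose printed value is fitted and is no bound. The tested genes shown of groups 1 to 11 were all higher, from 2.1 to 9.2, and Hoxc13 was lower, at -2.0.

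Genes of posterior axis progenitors, the cells that lay down trunk and tail, rose for 15 of 16 tested members, with a median of 3.10. Of the 16, 7 passed the low-count filter through the untreated Sca1 libraries alone, so for them only a higher level there could be tested. Cdx2, a homeodomain factor upstream of Hox genes in the embryo, had 67.3 and 76.6 CPM in untreated Sca1 cells, against 6.83 and 5.94 CPM in mESC (log2 fold change 3.48 ± 0.25, edgeR adjusted p = 4.83e-09). Cdx4 had 30 and 34 counts in untreated Sca1 cells, against 0 and 0 counts in mESC and was at least 34.7-fold higher. The secreted signal Fgf8 had 19.4 and 33.6 CPM in untreated Sca1 cells, against 0.22 and 0.425 CPM in mESC (a count ratio of 77.6, 95% counting interval 26.03 to 381), and Cyp26a1, which breaks down retinoic acid, had 31.6 and 34.01 CPM in untreated Sca1 cells, against 3.75 and 6.16 CPM in mESC (log2 fold change 2.71 ± 0.31). In Cdx4 and Fgf8 replicate 2 was the higher untreated Sca1 library. Greb1 rose by 3.87 ± 0.28. Markers of the presomitic mesoderm were present at low level, Msgn1 with 17 and 13 counts in untreated Sca1 cells, against 0 and 0 counts in mESC and Tbx6 with 27 and 13 counts in untreated Sca1 cells, against 3 and 2 counts in mESC, and Mesp1, Mesp2 and Uncx, of later somite stages, were too low to test. Tcf15 was the 1 tested member not called, at 17.9 and 21.95 CPM in untreated Sca1 cells, against 22.5 and 27.8 CPM in mESC.

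Neural crest factors rose for 9 of 13 tested genes and fell for 0, and 7 of the 13 passed the low-count filter through the untreated Sca1 libraries alone. Msx1 had 20.3 and 25.8 CPM in untreated Sca1 cells, against 1.76 and 1.06 CPM in mESC (log2 fold change 3.99 ± 0.41), Twist1, a factor of mesenchyme as well, had 20.8 and 17.2 CPM in untreated Sca1 cells, against 1.32 and 0.637 CPM in mESC (log2 fold change 4.25 ± 0.46, edgeR adjusted p = 9.46e-07), and Pax3 had 35 and 25 counts in untreated Sca1 cells, against 1 and 1 counts in mESC (a count ratio of 48.8, 95% counting interval 12.9 to 413). Zic1 had 36 and 13 counts in untreated Sca1 cells, against 1 and 0 counts in mESC, and Sox9, also a factor of cartilage, had 19 and 9 counts in untreated Sca1 cells, against 0 and 0 counts in mESC and was at least 15.2-fold higher. The crest-defining Sox10, Ednrb and Pax7 were too low to test, and Foxd3, Erbb3, Ngfr and Tfap2a were not called. Without untreated Sca1 replicate 1, Zic1 and Sox9 were too low to test, so their calls were not kept there. Of the neural crest genes, 5 were called higher without untreated Sca1 replicate 1. Of the neural crest genes, 1 was called lower without mESC replicate 2.

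Other families of developmental factors moved in part. Of the Sox family, 6 of 12 tested rose and 0 fell, with Sox11 at 82.5 and 92.97 CPM in untreated Sca1 cells, against 16.96 and 8.70 CPM in mESC (log2 fold change 2.77 ± 0.26) and Sox4 at 59.3 and 76.2 CPM in untreated Sca1 cells, against 17.2 and 14.6 CPM in mESC (log2 fold change 2.08 ± 0.23). Of the 12 Sox genes, 2 passed the low-count filter through the untreated Sca1 libraries alone. Of the Fox family, 8 of 24 rose and 3 fell. Of these 24, 4 passed the filter through the untreated Sca1 libraries alone and 1 through the mESC libraries alone. Foxb1 was at least 31.5-fold higher, Foxd1 rose by 4.04 ± 0.57, Foxo4 by 1.45 ± 0.20 and Foxp1 by 1.77 ± 0.28, and Foxq1 (-1.62 ± 0.27), Foxf2 (-1.85 ± 0.52) and Foxn2 (-0.61 ± 0.20) fell. T-box genes rose in 3 of 6 cases, brachyury, Tbx6 (3.60 ± 0.60) and Tbx2 (count ratio 15.2, interval 4.69 to 78.1), and Tbx3, a factor of the naive stem cell state, fell, with 163 and 106 CPM in untreated Sca1 cells, against 299 and 287 CPM in mESC (log2 fold change -1.12 ± 0.19, edgeR adjusted p = 0.000171). Of the 6 T-box genes, 2 passed the filter through the untreated Sca1 libraries alone. Gata2 (2.42 ± 0.41) and Gata3 (2.92 ± 0.60) rose and the endoderm factors Gata4 and Gata6 fell, which are all 4 tested Gata genes. Dependent on 1 library were the calls of Foxf2 without untreated Sca1 replicate 2 or mESC replicate 1 (edgeR adjusted p up to 0.0947), Foxn2 without untreated Sca1 replicate 1, untreated Sca1 replicate 2 or mESC replicate 2 (edgeR adjusted p up to 0.267). Of the Sox genes, 1 was called lower without untreated Sca1 replicate 1 or mESC replicate 2. Of the Fox genes, 1 was called lower without untreated Sca1 replicate 2. Of the Fox genes, 1 was called lower with DESeq2.

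The Klf family fell in 7 of 14 cases. Klf5, which acts with Klf4 in stem cells, had 86.97 and 62.4 CPM in untreated Sca1 cells, against 186 and 239 CPM in mESC (log2 fold change -1.50 ± 0.19, edgeR adjusted p = 6.70e-06), and Klf8 (-0.95 ± 0.22), Klf15 (-0.80 ± 0.22) and Klf12 (-1.27 ± 0.36) also fell. Klf6 was the single rise, with 75.9 and 96.4 CPM in untreated Sca1 cells, against 43.8 and 38.4 CPM in mESC (log2 fold change 1.06 ± 0.20). Of 4 Zic genes tested, Zic1 and Zic2 rose, Zic2 with 67.9 and 93.4 CPM in untreated Sca1 cells, against 26.9 and 22.3 CPM in mESC (log2 fold change 1.71 ± 0.22). The Zic genes had no fall. Irx3, of another homeodomain family, rose too (3.98 ± 0.61). Not kept in every leave-out were the calls of Klf8 without untreated Sca1 replicate 2 (edgeR adjusted p = 0.0645), Klf15 without untreated Sca1 replicate 1 or mESC replicate 2 (edgeR adjusted p up to 0.117), Klf12 without mESC replicate 2 (edgeR adjusted p = 0.288). Of the Klf genes, 4 were called lower without untreated Sca1 replicate 2 or mESC replicate 2. Of the Zic genes, 1 was called higher without untreated Sca1 replicate 1.

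Most listed genes of the LIF pathway fell, among them both receptor chains, Stat3 and some targets. Of 20 members, all tested, 12 fell (against 12.0% of all genes) and 3 rose, and the median log2 fold change was -0.79. The receptor chain Lifr had 61.4 and 52.1 CPM in untreated Sca1 cells, against 175 and 227 CPM in mESC (log2 fold change -1.82 ± 0.18, edgeR adjusted p = 3.97e-07). The shared chain Il6st had 103 and 98.6 CPM in untreated Sca1 cells, against 171 and 203 CPM in mESC (log2 fold change -0.89 ± 0.17). Both untreated Sca1 libraries lay below both mESC libraries in each. The transducer Stat3 had 131 and 74.5 CPM in untreated Sca1 cells, against 238 and 221 CPM in mESC (log2 fold change -1.14 ± 0.21), with replicate 2 the lower untreated Sca1 library, and the kinase Tyk2 fell by 0.81 ± 0.20. Jak1, the main kinase of the receptor, was not called (64.03 and 65.9 CPM in untreated Sca1 cells, against 46.05 and 57.96 CPM in mESC), and Jak2 rose, with 24.1 and 20.7 CPM in untreated Sca1 cells, against 8.59 and 10.8 CPM in mESC (log2 fold change 1.21 ± 0.29). Calls lost with 1 library left out were those of Tyk2 without untreated Sca1 replicate 2 (edgeR adjusted p = 0.1).

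The 2 largest falls of the list were in targets of Stat3. Socs3, the feedback inhibitor that Stat3 induces, had 30.7 and 15.9 CPM in untreated Sca1 cells, against 139 and 99.1 CPM in mESC (log2 fold change -2.31 ± 0.26, edgeR adjusted p = 6.30e-06). Bcl3 had 15.8 and 7.32 CPM in untreated Sca1 cells, against 64.3 and 49.7 CPM in mESC (log2 fold change -2.24 ± 0.29). Both genes were lowest in untreated Sca1 replicate 2 and did not overlap with mESC. The naive factors Tfcp2l1 (-1.58 ± 0.24), Klf4 (-1.50 ± 0.22), Klf5 (-1.50 ± 0.19), Tbx3 (-1.12 ± 0.19) and Gbx2 (-0.77 ± 0.22) and the kinase gene Pim3 (-0.77 ± 0.20) fell as well. Pim1 (0.51 ± 0.18) and the phosphatase gene Ptpn11 (0.62 ± 0.18), which couples the receptor to ERK, rose. Myc, Junb, Cish and Socs2 were not called, and Myc stood at 48.2 and 54.2 CPM in untreated Sca1 cells, against 48.7 and 47.8 CPM in mESC. One left-out library was enough to end the calls of Gbx2 without untreated Sca1 replicate 1 or mESC replicate 1 (edgeR adjusted p up to 0.121), Pim3 without untreated Sca1 replicate 2 (edgeR adjusted p = 0.206), Pim1 and Ptpn11 without untreated Sca1 replicate 1 or mESC replicate 2 (edgeR adjusted p up to 0.453). Of the LIF and STAT3 pathway genes, 1 was called higher without untreated Sca1 replicate 1 or mESC replicate 2. Of the LIF and STAT3 pathway genes, 1 was called higher with library totals as the only scaling.

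Stat proteins bind a motif of TTC, any 3 letters and GAA, which reads alike on both strands. Socs3 is shown because it had the largest fall of the pathway and is a known Stat3 target. Of the 12 genes that fell, 10 had a RefSeq promoter window, and Socs3 was the 1 with this motif in the 250 bases before its start. The motif was in 6.13% of called-lower genes (75 of 1224) and 8.13% of all genes with a window (2197 of 27025). The Socs3 window lies at chr11:117969367-117969616, minus strand of GRCm38.p6, with the motif in capitals beginning 154 bases before the start.
Socs3 (upstream window): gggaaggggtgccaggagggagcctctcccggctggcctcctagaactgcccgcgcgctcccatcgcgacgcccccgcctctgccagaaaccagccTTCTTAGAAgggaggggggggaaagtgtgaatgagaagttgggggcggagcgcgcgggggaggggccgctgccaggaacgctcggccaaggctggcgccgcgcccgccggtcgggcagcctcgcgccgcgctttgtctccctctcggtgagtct

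**Figure D5:**
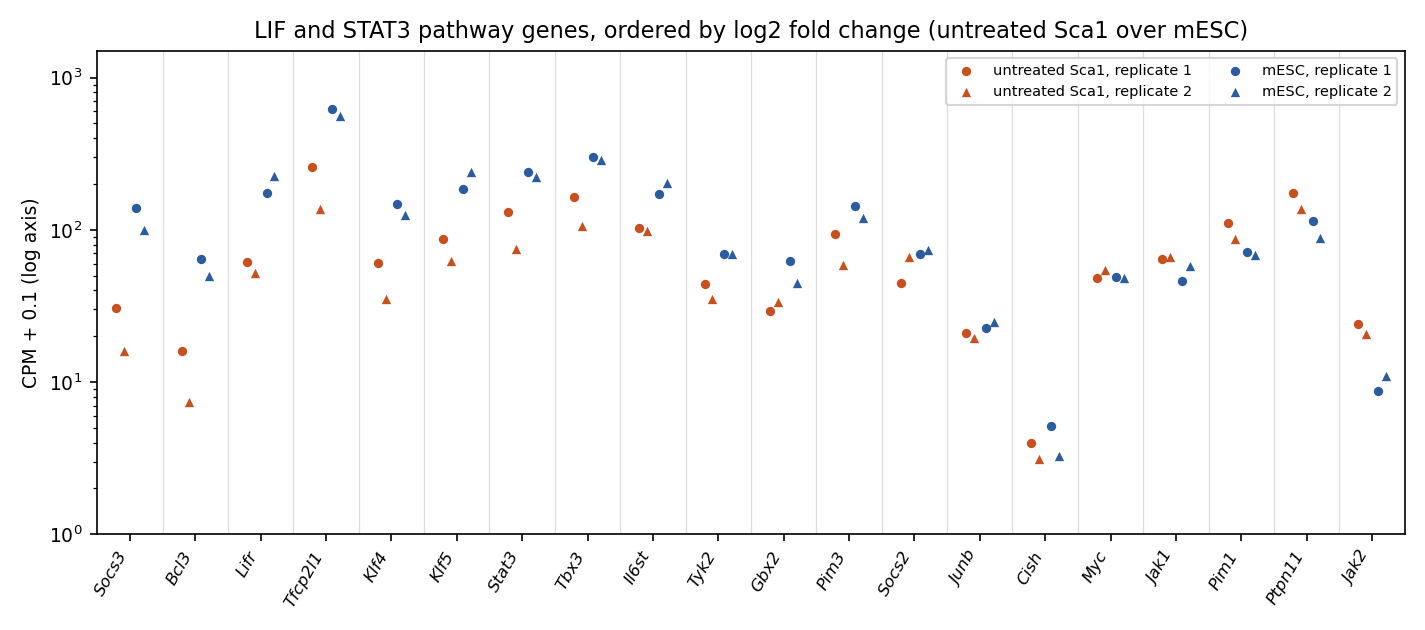
Points are the CPM of each library plus 0.1 on a log axis for the 20 LIF and STAT3 pathway genes, untreated Sca1 cells in orange left of mESC in blue, ordered from the lowest to the highest log2 fold change. Socs3 at the left has 30.7 and 15.9 CPM in untreated Sca1 cells, against 139 and 99.1 CPM in mESC, and Jak2 at the right has 24.1 and 20.7 CPM in untreated Sca1 cells, against 8.59 and 10.8 CPM in mESC.

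Wnt ligands rose for 10 of 12 tested genes of 19, with a median of 2.93 and no fall. Of the 12, 8 passed the low-count filter through the untreated Sca1 libraries alone, so members that did not rise could rarely be tested. Wnt5a, a ligand of the non-canonical branch, had 30.1 and 28.8 CPM in untreated Sca1 cells, against 0.22 and 0.849 CPM in mESC (log2 fold change 5.69 ± 0.46, edgeR adjusted p = 2.51e-08). Wnt8a had 48.8 and 89.1 CPM in untreated Sca1 cells, against 5.73 and 3.82 CPM in mESC (log2 fold change 3.83 ± 0.32), and Wnt3, needed for the primitive streak, had 15.5 and 21.5 CPM in untreated Sca1 cells, against 0.881 and 0.637 CPM in mESC (log2 fold change 4.54 ± 0.48). Replicate 2 was the higher untreated Sca1 library for Wnt8a and Wnt3, and the groups did not overlap. Wnt4 (3.69 ± 0.59) and Wnt7b (3.61 ± 0.59) were among the other rises. Among receptors and antagonists 9 of 21 rose and 2 fell. Of these 21, 4 passed the filter through the untreated Sca1 libraries alone and 1 through the mESC libraries alone. Fzd2 had 76.8 and 95.1 CPM in untreated Sca1 cells, against 5.73 and 4.25 CPM in mESC (log2 fold change 4.10 ± 0.26), while Fzd5 had 40.8 and 52.9 CPM in untreated Sca1 cells, against 220.1 and 177 CPM in mESC (log2 fold change -2.09 ± 0.19). Ror1, a receptor of Wnt5a, rose by 3.12 ± 0.45, the antagonist Dkk2 was at least 21.7-fold higher, Fzd1 rose by 3.93 ± 0.54, and Sfrp4 fell by 1.93 ± 0.70. Among these calls, 1 left-out library ended those of Sfrp4 without untreated Sca1 replicate 1 (edgeR adjusted p = 0.467). Of the Wnt receptors and antagonists, 1 was called lower without untreated Sca1 replicate 1 or mESC replicate 2. Of the Wnt receptors and antagonists, 1 was called lower with DESeq2.

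Fgf ligands changed in both directions, with 4 of 9 tested of 22 higher and 2 lower, and 4 of the 9 passed the low-count filter through the untreated Sca1 libraries alone. Fgf10, a ligand of limb and lung mesenchyme, had 3.28 and 1.72 CPM in untreated Sca1 cells, against 25.8 and 25.9 CPM in mESC (log2 fold change -3.29 ± 0.37, edgeR adjusted p = 1.57e-06). It was among the 10 largest falls of called rows with a gene name, at least 20 CPM in 1 group and at least 4 counts over the other. Fgf4 had 93.2 and 70.6 CPM in untreated Sca1 cells, against 152 and 120.2 CPM in mESC (log2 fold change -0.72 ± 0.19). Fgf15 (3.60 ± 0.59), Fgf5 (count ratio 27.1, interval 8.77 to 136), a marker of the epiblast after implantation, Fgf17 (0.89 ± 0.31) and Fgf8 rose. Fgf5 had 14 and 36 counts in untreated Sca1 cells, against 0 and 3 counts in mESC, with replicate 2 the higher untreated Sca1 library in CPM. Dependent on 1 library were the calls of Fgf4 without untreated Sca1 replicate 2 (edgeR adjusted p = 0.139), Fgf17 without untreated Sca1 replicate 1, untreated Sca1 replicate 2 or mESC replicate 2 (edgeR adjusted p up to 0.216).

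Parts of the hedgehog pathway that receive the signal rose. The transducer Smo had 51.2 and 60.3 CPM in untreated Sca1 cells, against 14.1 and 11.7 CPM in mESC (log2 fold change 2.11 ± 0.24), Gli3, the pathway factor that acts mainly as a repressor, had 79.8 and 93.8 CPM in untreated Sca1 cells, against 11.7 and 14.4 CPM in mESC (log2 fold change 2.73 ± 0.22), and the co-receptor genes Gas1 (5.05 ± 0.41), Boc (1.72 ± 0.40) and Cdon (1.09 ± 0.24) rose, which makes 5 of 11 tested. The ligand Ihh fell, with 7.74 and 9.90 CPM in untreated Sca1 cells, against 21.4 and 18.9 CPM in mESC (log2 fold change -1.21 ± 0.30, edgeR adjusted p = 0.00583). In the retinoic acid pathway 8 of 13 tested rose and 2 fell. The binding proteins Crabp2, with 45.3 and 37.4 CPM in untreated Sca1 cells, against 4.41 and 4.03 CPM in mESC (log2 fold change 3.29 ± 0.29), and Crabp1 (2.10 ± 0.31) rose, as did Dhrs3 (2.33 ± 0.52). Stra8 (-0.90 ± 0.22) and the uptake receptor Stra6 (-0.62 ± 0.21) fell, and the synthesis genes Aldh1a1, Aldh1a2 and Aldh1a3 were too low to test. Not kept in every leave-out were the calls of Ihh without untreated Sca1 replicate 1 (edgeR adjusted p = 0.0714), Stra8 without untreated Sca1 replicate 2 (edgeR adjusted p = 0.127), Stra6 without untreated Sca1 replicate 1, untreated Sca1 replicate 2 or mESC replicate 1 (edgeR adjusted p up to 0.269). Of the hedgehog pathway genes, 0 were called lower without untreated Sca1 replicate 1, and 2 without mESC replicate 1. Of the retinoic acid pathway genes, 1 was called lower without untreated Sca1 replicate 1 or mESC replicate 1, and 0 without untreated Sca1 replicate 2. Of the retinoic acid pathway genes, 1 was called lower with library totals as the only scaling or with DESeq2.

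Guidance molecules moved in both directions. Of Eph receptors and ephrins 9 of 17 rose and 3 fell. The ligands Efnb1 (2.32 ± 0.25), Efna5 (3.18 ± 0.43) and Efnb2 (2.03 ± 0.29) rose, Efnb1 with 42.9 and 52.1 CPM in untreated Sca1 cells, against 9.91 and 8.92 CPM in mESC. The receptor genes Epha4, with 57.8 and 60.7 CPM in untreated Sca1 cells, against 189.9 and 269.6 CPM in mESC (log2 fold change -1.96 ± 0.19, edgeR adjusted p = 2.43e-07), Ephb3 (-1.05 ± 0.20) and Ephb2 (-0.57 ± 0.20) fell. Of semaphorins, plexins and neuropilins 13 of 26 rose and 4 fell, and 4 of the 26 passed the low-count filter through the untreated Sca1 libraries alone. Secreted class 3 semaphorins, Sema3c (4.72 ± 0.53), Sema3a (count ratio 48.03, interval 12.7 to 406) and Sema3e (2.28 ± 0.41), rose together with their receptor gene Nrp1 (3.17 ± 0.35) and the membrane-bound Sema6a (4.83 ± 0.39). The falls were those of Sema4b (-1.22 ± 0.17), Sema7a (-2.80 ± 0.39), Sema4g (-1.62 ± 0.27) and Sema4a (-1.35 ± 0.40). Calls lost with 1 library left out were those of Ephb2 without untreated Sca1 replicate 1, untreated Sca1 replicate 2 or mESC replicate 2 (edgeR adjusted p up to 0.24), Sema4a without untreated Sca1 replicate 1 or mESC replicate 1 (edgeR adjusted p up to 0.149). Of the Eph receptors and ephrins, 3 were called higher without untreated Sca1 replicate 2.

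The IGF system rose for 10 of 15 tested genes and fell for 1, against 14.4% and 12.0% of all genes. Of the 15, 2, Irs1 among them, passed the low-count filter through the untreated Sca1 libraries alone. Igf1 was the 1 that passed through the mESC libraries alone. For these genes only a higher level in that group could be tested. Igf2, a fetal growth factor, had 1061 and 611 CPM in untreated Sca1 cells, against 12.1 and 8.70 CPM in mESC (log2 fold change 6.33 ± 0.30, edgeR adjusted p = 3.00e-09), with replicate 1 the higher untreated Sca1 library. Igf1, the ligand of later life, fell, with 0.894 and 1.29 CPM in untreated Sca1 cells, against 5.51 and 4.25 CPM in mESC (log2 fold change -2.16 ± 0.60). Insulin receptor substrate Irs1 had 79 and 54 counts in untreated Sca1 cells, against 1 and 2 counts in mESC (a count ratio of 72.2, 95% counting interval 24.2 to 354), and Irs2 rose by 3.06 ± 0.33. Binding proteins that hold IGF outside the cell rose, Igfbp4 with 161 and 111 CPM in untreated Sca1 cells, against 24.5 and 23.4 CPM in mESC (log2 fold change 2.51 ± 0.21), Igfbp5 (5.22 ± 0.50) and Igfbp3 (2.75 ± 0.29). The receptor genes Igf2r and Insr were not called, and Igf1r rose by 0.95 ± 0.22. One left-out library was enough to end the calls of Igf1 without untreated Sca1 replicate 1 or mESC replicate 1 (edgeR adjusted p up to 0.121), Igf1r without untreated Sca1 replicate 2 (edgeR adjusted p = 0.0613). Of the IGF system genes, 0 were called lower without untreated Sca1 replicate 1 or mESC replicate 1. Of the IGF system genes, 0 were called lower with DESeq2.

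A non-coding row near Igf2 rose too. The row of the microRNA Mir675 (NR_030416) had 210 and 71 counts in untreated Sca1 cells, against 2 and 4 counts in mESC (log2 fold change 6.12 ± 0.47, edgeR adjusted p = 2.97e-08). In the RefSeq gene table Mir675 lies on chromosome 7 at 142577064 to 142577147, inside the H19 gene at 142575530 to 142578146, and Igf2 lies at 142650768 to 142666816 (GRCm38.p6). Poly(A) libraries do not hold mature microRNAs, so such a row counts host or precursor RNA. Its mature forms are shown because this was 1 of the 10 largest rises, with the seed, bases 2 to 8, in capitals. Those rises were taken among called rows with a gene name, at least 20 CPM in 1 group and at least 4 counts over the other.
mmu-miR-675-5p: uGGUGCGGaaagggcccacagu
mmu-miR-675-3p: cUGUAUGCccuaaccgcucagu

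The microRNA rows of a stem cell cluster on chromosome 7 were at low counts and were looked at after their values were seen. Mir295 had 9 and 7 counts in untreated Sca1 cells, against 35 and 29 counts in mESC (log2 fold change -1.28 ± 0.46, edgeR adjusted p = 0.0472). Mir294 had 6 and 10 counts in untreated Sca1 cells, against 6 and 20 counts in mESC, and the groups overlapped. Neither Mir294 nor Mir293 nor Mir291b was called. The mature 3p forms of Mir294 and Mir295 share the seed AAGUGCU, known to promote stem cell proliferation, and those of Mir291b and Mir293 differ from it, with seeds AAGUGCA and GUGCCGC. Among these calls, 1 left-out library ended those of Mir295 without untreated Sca1 replicate 1, untreated Sca1 replicate 2, mESC replicate 1 or mESC replicate 2 (edgeR adjusted p up to 0.222).
mmu-miR-294-3p: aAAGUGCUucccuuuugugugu
mmu-miR-295-3p: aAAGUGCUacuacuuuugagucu
mmu-miR-291b-3p: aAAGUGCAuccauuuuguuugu
mmu-miR-293-3p: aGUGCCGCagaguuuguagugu

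Of 18 tested long non-coding RNAs and microRNA hosts, 8 fell and 0 rose. Of the 25 listed, 6 were not analysed here, H19 among them, so these counts leave out the gene around Mir675. Dleu2 had 30.1 and 34.9 CPM in untreated Sca1 cells, against 59.04 and 79.2 CPM in mESC (log2 fold change -1.10 ± 0.21, edgeR adjusted p = 0.000707), and Kcnq1ot1, which silences its imprinted neighbours, had 21.4 and 26.7 CPM in untreated Sca1 cells, against 42.3 and 71.8 CPM in mESC (log2 fold change -1.26 ± 0.26). Gas5 fell by 0.73 ± 0.17 and Snhg12 by 0.66 ± 0.17. Xist, the RNA of X inactivation, had 13.4 and 18.1 CPM in untreated Sca1 cells, against 25.6 and 50.3 CPM in mESC, and its antisense partner Tsix was called lower too. Reads from the pair cannot be told apart without strand. Neat1 had 194 and 159 CPM in untreated Sca1 cells, against 321 and 635 CPM in mESC (log2 fold change -1.44 ± 0.30). For Kcnq1ot1, Xist and Neat1 mESC replicate 2 was the highest library, as it was for Malat1, which had 494 and 725 CPM in untreated Sca1 cells, against 585 and 1770.1 CPM in mESC and was not called. Meg3 and Rian, of the imprinted Dlk1 region, were not called, with Meg3 at 526 and 546 CPM in untreated Sca1 cells, against 458 and 603 CPM in mESC. Dependent on 1 library were the calls of Snhg12 without untreated Sca1 replicate 1 (edgeR adjusted p = 0.106), Xist and Tsix without mESC replicate 2 (edgeR adjusted p up to 0.107). Of the long non-coding RNAs and microRNA hosts, 1 was called higher without mESC replicate 2. Of the long non-coding RNAs and microRNA hosts, 5 were called lower without mESC replicate 2.

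DNA methylation genes changed in both directions. Of 17 tested, 5 rose and 4 fell. The demethylase gene Tet1 had 179 and 179 CPM in untreated Sca1 cells, against 434 and 572 CPM in mESC (log2 fold change -1.49 ± 0.18, edgeR adjusted p = 3.13e-06) and Tet2 had 65.5 and 40.03 CPM in untreated Sca1 cells, against 136 and 231 CPM in mESC (log2 fold change -1.78 ± 0.30), while Tet3 had 36.04 and 38.7 CPM in untreated Sca1 cells, against 10.6 and 11.3 CPM in mESC (log2 fold change 1.77 ± 0.25). None of these 3 genes overlapped between the groups. The methyltransferase genes Dnmt3a (1.11 ± 0.17) and Dnmt3b (0.58 ± 0.20) rose and their cofactor Dnmt3l (-0.51 ± 0.16) fell. Zfp57, which protects imprints, had 236 and 153 CPM in untreated Sca1 cells, against 544 and 699.9 CPM in mESC (log2 fold change -1.67 ± 0.21). Uhrf2 (1.02 ± 0.18) and Mbd3 (0.49 ± 0.17) rose. Not kept in every leave-out were the calls of Dnmt3b without untreated Sca1 replicate 2 or mESC replicate 2 (edgeR adjusted p up to 0.631), Dnmt3l without untreated Sca1 replicate 1, untreated Sca1 replicate 2 or mESC replicate 1 (edgeR adjusted p up to 0.236), Mbd3 without untreated Sca1 replicate 1, untreated Sca1 replicate 2 or mESC replicate 2 (edgeR adjusted p up to 0.371). Of the DNA methylation enzymes and cofactors, 3 were called higher without untreated Sca1 replicate 2 or mESC replicate 2. Of the DNA methylation enzymes and cofactors, 3 were called higher with library totals as the only scaling.

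Of Polycomb and Trithorax genes 3 of 33 rose and 7 fell. Setd7 itself, Cbx2 (0.76 ± 0.22) and Cbx6 (0.60 ± 0.18) were the rises, and Dpy30 (-0.77 ± 0.16), Eed (-0.67 ± 0.16), Mtf2 (-0.56 ± 0.17), Kmt2c (-0.84 ± 0.25) and Rbbp5 (-0.58 ± 0.20) were among the falls. Jarid2 had 339.8 and 2597 CPM in untreated Sca1 cells, against 479 and 2497 CPM in mESC, a difference between replicates rather than groups. Of BAF and NuRD remodelling subunits 5 of 28 rose, Mta1 (0.86 ± 0.16), Chd3 (0.97 ± 0.19), Smarce1 (0.65 ± 0.20), Brd7 (0.51 ± 0.18) and Rbbp7 (0.48 ± 0.17), and 0 fell. Over all genes the shares were 14.4% higher and 12.0% lower. Of developmental RNA-binding proteins 5 of 24 rose and 2 fell. Esrp1, an epithelial splicing regulator, had 61.4 and 105 CPM in untreated Sca1 cells, against 19.2 and 17.6 CPM in mESC (log2 fold change 2.16 ± 0.25, edgeR adjusted p = 2.50e-06), and Lin28a (0.70 ± 0.17), Lin28b (1.09 ± 0.23), Celf2 (1.13 ± 0.27) and Hmga2 (0.61 ± 0.18) rose. Trim71 (-0.69 ± 0.24) and Ptbp3 (-0.50 ± 0.16) fell. Calls lost with 1 library left out were those of Cbx2, Brd7 and Trim71 without untreated Sca1 replicate 2 or mESC replicate 2 (edgeR adjusted p up to 0.648), Cbx6 and Rbbp7 without untreated Sca1 replicate 1, untreated Sca1 replicate 2 or mESC replicate 2 (edgeR adjusted p up to 0.308), Eed, Mtf2, Rbbp5 and Smarce1 without untreated Sca1 replicate 2 (edgeR adjusted p up to 0.422). The same held for Kmt2c without mESC replicate 2 (edgeR adjusted p = 0.367), Hmga2 without untreated Sca1 replicate 1 or mESC replicate 1 (edgeR adjusted p up to 0.149), Ptbp3 without untreated Sca1 replicate 1, untreated Sca1 replicate 2 or mESC replicate 1 (edgeR adjusted p up to 0.222). Of the Polycomb and Trithorax genes, 1 was called higher without untreated Sca1 replicate 2 or mESC replicate 2. Of the Polycomb and Trithorax genes, 2 were called lower without untreated Sca1 replicate 2. Of the BAF and NuRD genes, 2 were called higher without untreated Sca1 replicate 2, and 3 without mESC replicate 2. Of the RNA-binding and splicing regulators, 1 was called lower without untreated Sca1 replicate 1 or mESC replicate 2, and 0 without untreated Sca1 replicate 2. Of the Polycomb and Trithorax genes, 2 were called lower with library totals as the only scaling. Of the BAF and NuRD genes, 2 were called higher with library totals as the only scaling and 3 with DESeq2. Of the RNA-binding and splicing regulators, 3 were called higher with library totals as the only scaling. Of the RNA-binding and splicing regulators, 0 were called lower with library totals as the only scaling or with DESeq2.

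Regulators of the G1 phase rose for 10 of 26 tested genes and fell for 3. Cyclins and their inhibitors alike were among the rises. Cdkn1c, the inhibitor p57, had 60.2 and 74.9 CPM in untreated Sca1 cells, against 6.17 and 5.09 CPM in mESC (log2 fold change 3.57 ± 0.26, edgeR adjusted p = 7.29e-09). Cdkn2a had 27.1 and 20.2 CPM in untreated Sca1 cells, against 6.83 and 4.03 CPM in mESC (log2 fold change 2.13 ± 0.33) and its neighbour Cdkn2b 18.5 and 15.1 CPM in untreated Sca1 cells, against 3.97 and 2.12 CPM in mESC (log2 fold change 2.46 ± 0.40). Cyclin D1, Ccnd1, had 347 and 330.1 CPM in untreated Sca1 cells, against 186 and 143 CPM in mESC (log2 fold change 1.04 ± 0.17), and Mycn 117 and 148 CPM in untreated Sca1 cells, against 60.4 and 38.00 CPM in mESC (log2 fold change 1.43 ± 0.21). E2f2 (-1.34 ± 0.27), Cdk2 (-0.83 ± 0.17) and Rbl2 (-1.01 ± 0.34) fell. Of the BCL2 family 4 of 15 rose, Bmf (1.71 ± 0.29), Bcl2 (2.73 ± 0.57), Bok (1.24 ± 0.29) and Pmaip1 (0.91 ± 0.26), and Bid (-0.69 ± 0.19) fell. One left-out library was enough to end the calls of Rbl2 without untreated Sca1 replicate 1 or mESC replicate 2 (edgeR adjusted p up to 0.379), Bok and Pmaip1 without untreated Sca1 replicate 2 (edgeR adjusted p up to 0.354), Bid without untreated Sca1 replicate 1 (edgeR adjusted p = 0.173). Of the BCL2 family genes, 2 were called higher without untreated Sca1 replicate 2. Of the BCL2 family genes, 0 were called lower without untreated Sca1 replicate 1.

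Antigen presentation genes were split, 4 of 13 tested higher and 3 lower. B2m, the light chain of class I molecules, had 41.1 and 37.4 CPM in untreated Sca1 cells, against 20.5 and 17.6 CPM in mESC (log2 fold change 1.05 ± 0.23), and H2-K1 (0.93 ± 0.26) and Irf1 (0.82 ± 0.22) rose with it. The immunoproteasome subunits Psmb8 and Psmb9 were called in opposite directions. Of the 13 tested genes, 1, Psmb8, passed the low-count filter through the untreated Sca1 libraries alone. Psmb9 was the 1 that passed through the mESC libraries alone. Each could thus be tested only in the direction in which it was called. Without untreated Sca1 replicate 1, Psmb8 was too low to test. Psmb8 had 20 and 11 counts in untreated Sca1 cells, against 0 and 0 counts in mESC and was at least 16.8-fold higher, while Psmb9 had 2.38 and 1.72 CPM in untreated Sca1 cells, against 13.2 and 8.07 CPM in mESC (log2 fold change -2.32 ± 0.48, edgeR adjusted p = 0.00115). The peptide transporter Tap1 (-1.01 ± 0.25) and Ifitm2 (-0.55 ± 0.19) fell. Among these calls, 1 left-out library ended those of H2-K1 without untreated Sca1 replicate 2 (edgeR adjusted p = 0.179), Irf1 without untreated Sca1 replicate 1 or mESC replicate 2 (edgeR adjusted p up to 0.0541), Tap1 without untreated Sca1 replicate 1 (edgeR adjusted p = 0.0623). So it was with Ifitm2 without untreated Sca1 replicate 2 or mESC replicate 1 (edgeR adjusted p up to 0.528).

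Of 73 tested respiratory chain subunits 0 rose and 11 fell (against 12.0% of all genes), with a median of -0.25. Cox6a1 had 198 and 225 CPM in untreated Sca1 cells, against 423 and 463 CPM in mESC (log2 fold change -1.07 ± 0.17, edgeR adjusted p = 7.12e-05) and Cox6b2, an isoform known from testis, 44.97 and 37.02 CPM in untreated Sca1 cells, against 96.3 and 99.8 CPM in mESC (log2 fold change -1.25 ± 0.19). Of 84 ribosomal protein genes 1, Rps2, rose and 8 fell, against 14.4% and 12.0% of all genes, with Rpl39l, a testis-type paralogue, at 38.7 and 25.8 CPM in untreated Sca1 cells, against 84.6 and 68.8 CPM in mESC (log2 fold change -1.23 ± 0.22). Ribosomal genes have many near-identical copies, so single genes are uncertain. Of 21 genes of fatty acid metabolism Cpt1b (2.10 ± 0.48) rose and 5 fell, Cpt1a with 70.9 and 61.6 CPM in untreated Sca1 cells, against 167 and 146 CPM in mESC (log2 fold change -1.24 ± 0.17), Acadm (-1.18 ± 0.18), Elovl5 (-0.67 ± 0.17), Elovl6 (-0.59 ± 0.16) and Pdk1 (-0.48 ± 0.16). The muscle and liver forms of the mitochondrial fatty acid carrier enzyme, Cpt1b and Cpt1a, thus went opposite ways. Dependent on 1 library were the calls of Rps2 without mESC replicate 2 (edgeR adjusted p = 0.286), Elovl5 without untreated Sca1 replicate 1 (edgeR adjusted p = 0.108), Elovl6 without untreated Sca1 replicate 1 or untreated Sca1 replicate 2 (edgeR adjusted p up to 0.121). Also lost were Pdk1 without untreated Sca1 replicate 1, untreated Sca1 replicate 2 or mESC replicate 1 (edgeR adjusted p up to 0.328). Of the respiratory chain subunits, 2 were called higher without mESC replicate 1. Of the respiratory chain subunits, 3 were called lower without untreated Sca1 replicate 2. Of the cytoplasmic ribosomal proteins, 7 were called higher without mESC replicate 1, and 0 without mESC replicate 2. Of the cytoplasmic ribosomal proteins, 4 were called lower without untreated Sca1 replicate 1, and 3 without untreated Sca1 replicate 2. Of the fatty acid genes, 3 were called higher without untreated Sca1 replicate 1 or mESC replicate 1. Of the fatty acid genes, 2 were called lower without untreated Sca1 replicate 1, and 3 without untreated Sca1 replicate 2. Of the respiratory chain subunits, 2 were called lower with library totals as the only scaling and 6 with DESeq2. Of the cytoplasmic ribosomal proteins, 0 were called higher with library totals as the only scaling. Of the cytoplasmic ribosomal proteins, 2 were called lower with library totals as the only scaling and 1 with DESeq2. Of the fatty acid genes, 2 were called lower with library totals as the only scaling.

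In threonine, glycine and one-carbon metabolism 3 of 18 rose and 2 fell, close to the 14.4% and 12.0% of all genes. Psat1, of serine synthesis, had 294 and 273 CPM in untreated Sca1 cells, against 127 and 109.8 CPM in mESC (log2 fold change 1.26 ± 0.16, edgeR adjusted p = 9.19e-06), and Phgdh (1.21 ± 0.34) and Mthfd2 (0.82 ± 0.20) rose. Tdh, the threonine dehydrogenase that mouse stem cells depend on, had 360.4 and 314 CPM in untreated Sca1 cells, against 606 and 496 CPM in mESC (log2 fold change -0.71 ± 0.17), and Shmt1 (-0.46 ± 0.17) fell. Of 19 genes of oxidative stress 7 rose, Srxn1 (1.18 ± 0.21), Gclm (0.97 ± 0.20) and Txnrd1 (0.73 ± 0.17) among them, and the mitochondrial Sod2 (-0.83 ± 0.18) fell. Lysosome genes fell for 9 of 22, with Ctsa at 154 and 146 CPM in untreated Sca1 cells, against 289 and 312 CPM in mESC (log2 fold change -1.002 ± 0.16) and their regulator Tfeb at 38.7 and 21.1 CPM in untreated Sca1 cells, against 66.3 and 78.5 CPM in mESC (log2 fold change -1.25 ± 0.24), and Sqstm1, an autophagy receptor, rose (0.86 ± 0.20). Not kept in every leave-out were the calls of Phgdh without untreated Sca1 replicate 1 or mESC replicate 1 (edgeR adjusted p up to 0.106), Mthfd2 without untreated Sca1 replicate 1 (edgeR adjusted p = 0.203), Tdh and Sod2 without untreated Sca1 replicate 2 (edgeR adjusted p up to 0.104). Further such calls were Shmt1 without untreated Sca1 replicate 1, untreated Sca1 replicate 2 or mESC replicate 1 (edgeR adjusted p up to 0.388). Of the threonine, glycine and one-carbon genes, 1 was called lower without untreated Sca1 replicate 1 or mESC replicate 1, and 0 without untreated Sca1 replicate 2. Of the oxidative stress and glutathione genes, 0 were called lower without untreated Sca1 replicate 2, and 2 without mESC replicate 2. Of the lysosome genes, 3 were called lower without untreated Sca1 replicate 1 or untreated Sca1 replicate 2, and 5 without mESC replicate 2. Of the threonine, glycine and one-carbon genes, 0 were called lower with library totals as the only scaling and 1 with DESeq2. Of the lysosome genes, 3 were called lower with library totals as the only scaling.

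The largest changes were sought among 2316 called genes that averaged 20 CPM or more in 1 group and had 4 counts or more in the other. Rows without a gene name were left out, so a larger change in such a row is not listed. Upward they were Col1a1, Acta2, Col1a2, Hoxd3, Igf2, Tgfb2, Mir675, Tagln, Fndc3c1 and Thbs1. Tgfb2, a ligand of the TGF-beta family, had 36.9 and 37.02 CPM in untreated Sca1 cells, against 0 and 0.849 CPM in mESC (log2 fold change 6.31 ± 0.49, edgeR adjusted p = 1.73e-08), and the matrix glycoprotein Thbs1 had 103 and 99.4 CPM in untreated Sca1 cells, against 1.76 and 1.49 CPM in mESC (log2 fold change 5.94 ± 0.29). Fndc3c1 rose by 5.94 ± 0.50 on the log2 scale. Both groups of replicates lay close together in Thbs1.

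Downward the largest changes were those of 1700108F19Rik, Slc13a5, Khdc3, Adgrg6, Myo7a, Fgf10, Trf, Efhc2, Mitf and Dazl. The non-coding row 1700108F19Rik had 1.49 and 2.15 CPM in untreated Sca1 cells, against 53.5 and 55.8 CPM in mESC (log2 fold change -4.93 ± 0.34, edgeR adjusted p = 3.33e-09). Trf, the iron carrier transferrin, had 3.28 and 4.30 CPM in untreated Sca1 cells, against 37.9 and 32.5 CPM in mESC (log2 fold change -3.23 ± 0.32). Mitf, a factor of melanocytes and of lysosome genes, had 5.06 and 2.15 CPM in untreated Sca1 cells, against 27.98 and 36.1 CPM in mESC (log2 fold change -3.06 ± 0.35), and Myo7a, an unconventional myosin, had 8.04 and 7.75 CPM in untreated Sca1 cells, against 78.2 and 83.4 CPM in mESC (log2 fold change -3.35 ± 0.24). Dazl, a germ cell RNA-binding protein, had 16.7 and 16.8 CPM in untreated Sca1 cells, against 109.9 and 169 CPM in mESC (log2 fold change -3.06 ± 0.24). The replicates of each gene stayed on their own side, with mESC replicate 2 the highest library for Dazl and Mitf.

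Some genes followed the replicate number and not the group. Of 8409 genes of at least 20 CPM, 14 were more than 1 log2 unit higher in replicate 2 than in replicate 1 in both groups, 0 were lower by as much in both, and 0 of the 14 were called. Cdk8 had 303 and 12248 CPM in untreated Sca1 cells, against 316 and 10269 CPM in mESC. Filip1l had 280.0 and 7373 CPM in untreated Sca1 cells, against 261 and 7439 CPM in mESC, and Cmss1, which overlaps it in the genome, 313 and 7405 CPM in untreated Sca1 cells, against 289.7 and 7471 CPM in mESC. Rmrp, the RNA of an RNA-processing complex, had 3.28 and 103 CPM in untreated Sca1 cells, against 1.54 and 154 CPM in mESC. These 4 genes and NR_046233 were the 5 with the largest shared rise, and Stox1, Acta2, Dynlt1b and Crabp1 were among the 5 with the largest shared decrease, each by under 1 log2 unit in at least 1 group. Acta2 and Crabp1 were called all the same, with log2 differences of 6.74 and 6.88 (Acta2) and 2.02 and 2.00 (Crabp1) within code 34 and code 56, as log2 CPM with a prior count of 2.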

How the data were processed

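Read counts per RefSeq transcript were analysed as deposited by the authors; per the submitters' processing notes the tools were BWA 0.5.9, SAMtools 0.1.17 and edgeR 0.19. For the counting program, genome build, annotation and strand, the sources used here give nothing. Libraries were poly(A)-selected and run on a Genome Analyzer IIx, per the labels' protocols. Of 29614 transcripts, 28985 were named from a RefSeq gene table, 172 from GENCODE metadata, and 457 kept their accession. The row with the highest total over all columns stood for its gene.

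The 4 libraries were fitted with edgeR 4.0.16 (R 4.3.3), with filterByExpr, TMM factors and a robust quasi-likelihood test of 2 libraries against 2, which leaves 2 residual degrees of freedom. P-values were adjusted over the 13217 genes tested. The standard error is the absolute log2 fold change divided by the square root of F. The step was tested on simulated data. Motifs were searched on RefSeq promoter windows of GRCm38.p6.

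Members and gene lists were chosen with earlier results of these data known. The text names Setd7, the marker genes, the 10 largest changes each way, up to 5 called members of a list in each direction with the smallest p, and the 5 genes each way that differed most by replicate in both groups. Other genes, such as further actin isoforms, Hox genes and LIF pathway members, were picked with their values already seen. Alternatives used other size factors (DESeq2 1.42.0 among them), filters, thresholds, fits and left-out libraries.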

Additional observations from a re-analysis of the deposited data

How the results depend on the processing

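Against 1903 higher and 1588 lower genes, there were 1952 and 1558 with RLE size factors, 1654 and 1147 with library totals only, 2198 and 1848 with no filter, 1746 and 1485 with a filter at 5 CPM, and 1823 and 1515 with transcript rows summed. DESeq2 gave 1325 and 975, a test against a 1.5-fold change 1034 and 589, and all 8 libraries in 1 fit 2613 and 2353. Adding the library code as a replicate block to that last fit gave 2968 and 2819. With 1 library left out at a time there were 1376 to 1954 higher and 983 to 1889 lower genes, the lowest of both without untreated Sca1 replicate 2 and the highest without mESC replicate 1. Where 1 library was left in a group, it was assumed to vary like the other group. The causes of these moves were not tested. Rises made up 54.5% of calls, and 50.8% to 63.7% over these alternatives, and no setting moved the median of all genes by more than 0.1 log2 units.

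The replicate number as a replicate block gave 2425 higher and 2210 lower genes, and the 3491 calls made without it were all among these. Deviations of same-numbered libraries from their group means correlated at 0.349 across 10207 genes, but the labels do not say that a number pairs cultures, and there are only 2 pairs. With the block 23 respiratory chain subunits and 16 ribosomal protein genes were called lower, against 11 and 8 without it. Sox2, Dppa5a, Sox7, Myh6 and Thy1 passed the threshold with the block and not without it.

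Of 307 called genes followed one by one, DESeq2 lost 44, library totals only 49, the 1.5-fold test 101, summed rows 15, and leaving out 1 library at a time 95 in all, and none of them changed sign. Of 1456 list counts under alternatives, 230 moved by over 1.5 times. A followed gene that failed the low-count filter under an alternative was not followed there, so its call is not counted as lost. Among such genes were Actg2 and Cav1 without untreated Sca1 replicate 1, and Adamts5 and Cavin3 with either untreated Sca1 library left out. Signs turned only in genes that were not called. With 1 library left out, log2 fold changes ran from -0.013 to 0.836 for Eomes, -0.42 to 0.75 for Foxa2, -0.75 to 0.25 for Kdr, -0.79 to 0.76 for Ly6a, -0.27 to 1.20 for Map2, -0.17 to 0.58 for Mylk, -0.21 to 0.11 for Nanog, -0.36 to 0.17 for Pou5f1 and -0.416 to 0.0187 for Utf1. With 2507995 to 5080326 counts per library, genes of a few counts could not be tested, and a group without counts gives a lower bound only.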

Other observations

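The genes seen in 1 group alone were looked at after their values were seen. There were 169 genes with more than 3 counts in untreated Sca1 cells and 0 in mESC, and 221 the other way round. Upward bounds went far higher than downward ones. Library sizes after TMM scaling were 3357517 and 2323201 in untreated Sca1 cells, against 4539001 and 4710461 in mESC. Both the numbers of such genes and the bounds depend on these sizes, and how much of the contrast comes from them was not tested. Besides Actc1, Col8a1 and the Hox genes of the report, Csf1, the growth factor of macrophages, had 74 and 52 counts in untreated Sca1 cells, against 0 and 0 counts in mESC (at least 68.4-fold higher). Prrx1, a homeodomain factor of limb and head mesenchyme, had 73 and 27 counts in untreated Sca1 cells, against 0 and 0 counts in mESC (at least 54.3-fold higher). Tmem119, known from bone-forming cells and microglia, had 63 and 36 counts in untreated Sca1 cells, against 0 and 0 counts in mESC (at least 53.7-fold higher), and the interferon-induced Gbp2 had 47 and 35 counts in untreated Sca1 cells, against 0 and 0 counts in mESC (at least 44.5-fold higher). These 4 genes were called in edgeR's test. Of the genes without a count in untreated Sca1 cells, the largest bound was at 0 and 0 counts in untreated Sca1 cells, against 9 and 38 counts in mESC for the non-coding row 9030404E10Rik, at least 9.62-fold lower, which was too low to test.

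Shares of called genes differed between chromosomes. Among genes of at least 10 CPM with a position, 67 of 327 on chromosome X (20.5%) and 58 of 285 on chromosome 18 (20.4%) rose, and the other autosomes lay between 9.79% and 15.1%. Falls were most frequent on chromosome 9, with 101 of 567 genes (17.8%), and among autosomes least frequent on chromosome 15, with 36 of 412 (8.74%). Chromosome Y held 3 such genes, of which 0 were called. These shares were not tested.

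Counts differed between replicates by more than sampling noise. The chi-square per gene between replicates, without NR_046233, was 12.1 for untreated Sca1 cells, 1.496 for Sca1 cells with a control construct, 1.82 for those with a Set7 knockdown construct, and 19.8 for mESC. A value near 1 is sampling noise alone. The value is a mean over genes, so rows with very large replicate differences, such as those of Cdk8, Filip1l and Cmss1, add much to it. It does not give the spread of a typical gene.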
